A study of Mus musculus with 8 samples.

Results

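RNA-seq of whole aortas was examined for 9 genes that start clotting, hold it back or dissolve the clot: Thbd, Procr, F3, Tfpi, Plat, Plau, Plaur, Serpine2 and Thbs1. They were chosen by name, with earlier results of these data known, and each was taken as the assembled locus that carries that gene name. Where a name stood on several loci, which was the case for Serpine2, the locus with the most counts over all libraries was used. They make up 9 of 48607 loci in the table, and 8 of them reached the minimum level for testing, at least 1 FPKM (a read level corrected for transcript length and sequencing depth) in at least 3 libraries. Tfpi did not reach it.

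Blood clots in the vessel when tissue factor meets the circulating clotting proteases and thrombin is made. The endothelium restrains thrombin through thrombomodulin, the protein C receptor and tissue factor pathway inhibitor, and clots are dissolved by plasmin, which the tissue-type and urokinase-type activators release from plasminogen. In an atherosclerotic artery, macrophages and smooth muscle cells also make tissue factor, urokinase and its receptor, and thrombospondin 1.

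All mice lacked apolipoprotein E (ApoE-/-), which makes them prone to atherosclerosis, and all received a Western diet for 12 weeks. In 1 of the 2 groups the mice also lacked natriuretic peptide receptor C (NPRC-/-ApoE-/-). That receptor binds and clears natriuretic peptides, and the mutant, which carries a CRISPR frameshift in every cell, was crossed into the ApoE-/- line, with ApoE-/- littermates as controls. Titles gave 5 ApoE-/- and 3 NPRC-/-ApoE-/- libraries, whereas the genotype entry contradicted the title in 4 of the 8 libraries. The libraries titled ApoE-/- 4 and 5 were entered as NPRC-/-ApoE-/-, those titled NPRC-/-ApoE-/- 1 and 2 were entered as ApoE-/-, and the entries again gave 5 against 3. Fold changes are therefore given by title and by genotype entry.

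By title, the total count was between 67039577 and 84600371 in ApoE-/- and between 62969165 and 86693276 in NPRC-/-ApoE-/-. Npr3, the gene for the deleted receptor, was read at 0.62 to 1.69 FPKM in the first group and at 1.13 to 1.39 FPKM in the second, so its transcript level did not separate the groups under either label. A frameshift need not remove the transcript, so this level checks neither label. The aortic markers were present, with all 10 smooth muscle and all 10 endothelial markers above 1 FPKM in every library. The library titled ApoE-/- 5 stood apart with 43.74 FPKM of the liver gene Alb, against at most 0.34 FPKM elsewhere. The library titled ApoE-/- 2 had a summed level of 6.24 FPKM over 6 mesothelial markers, against 0.16 to 1.04 FPKM in the rest. No pair of libraries agreed within sampling noise. Each library was treated as 1 mouse, and in bulk RNA of a whole aorta, fewer cells of a type and less RNA per cell cannot be told apart.

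Across the 8 libraries Thbs1 stood highest of the 9 genes and Tfpi lowest. The order by mean FPKM was Thbs1, Serpine2, Thbd, Plau, F3, Plat, Plaur, Procr and Tfpi. Thbs1 exceeded Serpine2 in 8 of 8 libraries by 1.92 to 5.75 times, and Procr exceeded Tfpi in 8 of 8 libraries by 4.14 to 7.09 times, with no overlap of their ranges. The 6 pairs of neighbours between them overlapped in range. Plat exceeded Plaur in only 4 of 8 libraries, and F3 exceeded Plat in 5 of 8.

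**Figure D1:**
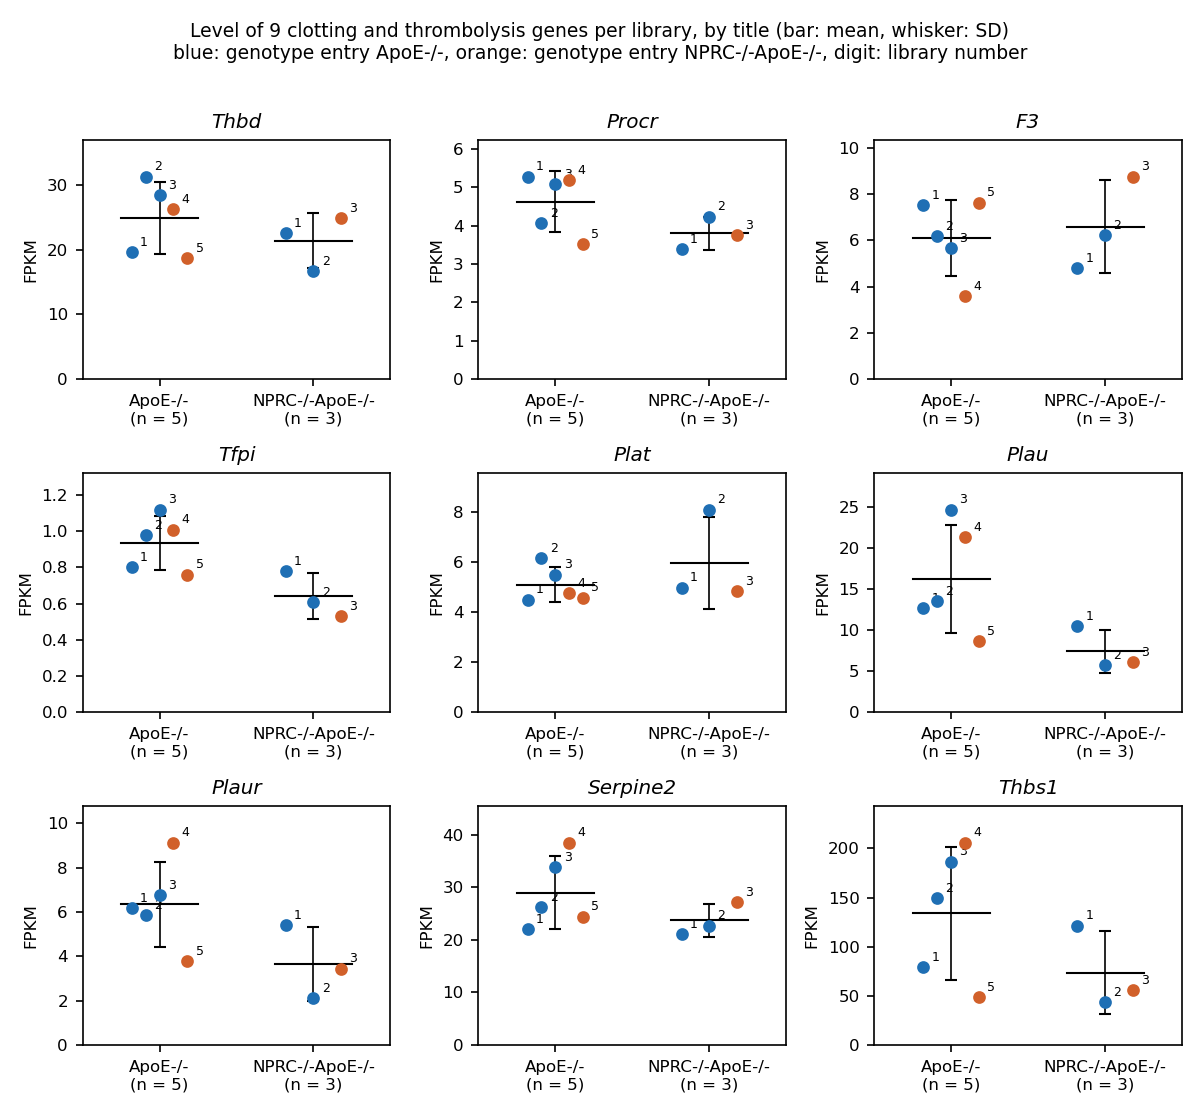
Level in FPKM (vertical axis, linear from 0) of each gene in each library, by title (horizontal axis, 5 ApoE-/- and 3 NPRC-/-ApoE-/- libraries); points are libraries numbered as in their titles and coloured by genotype entry, bars are means and whiskers SD. All 9 genes overlap between the titled groups, and Thbs1, Plau and Plaur have the widest spread, from 4.31 to 4.73 times between the lowest and the highest library.

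By title, 6 of the 8 tested genes had a log2 fold change (NPRC-/-ApoE-/- minus ApoE-/-) below 0, against 50.9% of all 20506 tested loci, and the median of the 8 was -0.28, against -0.0062 over all tested loci. The members that stood lowest were Plau (-1.14), Thbs1 (-0.88) and Plaur (-0.79), and F3 (0.15) and Plat (0.24) lay above 0. In the study a gene counts as changed with a fold change over 2 or under 0.5 and a p under 0.05, not adjusted, and 1 of the 8, Plau, met this, where 3.47% of all tested loci did. Plau was also the only one of the 8 with an unadjusted p under 0.05, where 13.6% of the tested loci had one. None passed an adjusted p of 0.05 in the quasi-likelihood test of edgeR (0 of 8, and 0% of all tested loci), nor in DESeq2 (0 of 8, against 3.14% of all tested loci). The groups did not overlap for 0 of the 8, against 7.25% of all tested loci.

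By genotype entry the picture was not kept. Of the 8 tested genes 4 lay below 0 and 4 above, against 51% of the tested loci below 0, and their median was -0.016. None met the criterion of the study (0.463% of loci), none had an unadjusted p under 0.05 (1.31%), none passed an adjusted p of 0.05 (0%) and none had groups that did not overlap (0.97%). Plaur (0.10), Serpine2 (0.29) and Thbd (0.01) changed sign to above 0, and Plat changed to -0.27. In the 4 libraries whose labels agree, 3 ApoE-/- and 1 NPRC-/-ApoE-/-, the log2 fold changes were -1.43 for Plau, -1.25 for Thbs1, -0.78 for Plaur and 0.53 for F3. There the lone NPRC-/-ApoE-/- library was assumed to vary like the other group.

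**Figure D2:**
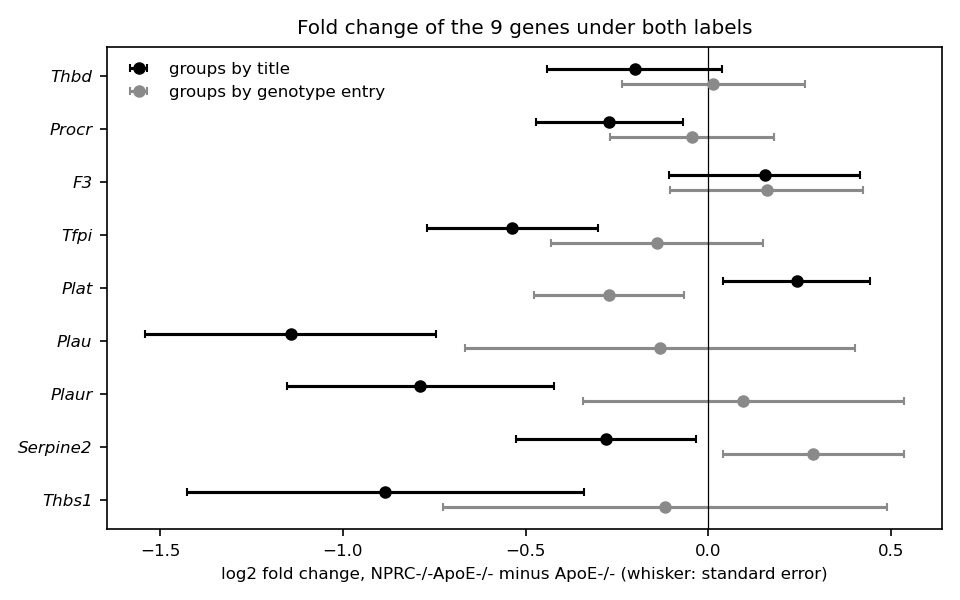
Log2 fold change of each gene (horizontal axis, NPRC-/-ApoE-/- minus ApoE-/-) with its standard error as whisker, with the libraries grouped by title (black) and by genotype entry (grey); Tfpi is from the fit without a filter on low values. Plau, Plaur and Thbs1 lie farthest below 0 by title (-1.14, -0.79 and -0.88), and all 9 lie between -0.27 and 0.29 by genotype entry.

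Tissue factor, encoded by F3, is the cell-surface protein that starts clotting when it binds circulating factor VII. Its level was 7.53, 6.17, 5.68, 3.60 and 7.63 FPKM in ApoE-/- 1 to 5 and 4.81, 6.22 and 8.75 FPKM in NPRC-/-ApoE-/- 1 to 3. The lowest library, ApoE-/- 4, and the highest, NPRC-/-ApoE-/- 3, carry the same genotype entry, and the titled groups overlapped. By title the log2 fold change was 0.15 (SE 0.26, edgeR adjusted p = 0.817) and 0.16 by genotype entry (adjusted p = 1). Without NPRC-/-ApoE-/- 3 the value by title was -0.14. The F3 locus of the table starts 410 bases before the annotated gene, on chromosome 3 from 121723537 to 121735048 of GRCm38, plus strand, with at most 6 exons in a transcript.

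Tissue factor pathway inhibitor, encoded by Tfpi, blocks tissue factor once factor X has been activated. It was read at 0.80, 0.98, 1.12, 1.01 and 0.76 FPKM in ApoE-/- 1 to 5 and at 0.78, 0.61 and 0.53 FPKM in NPRC-/-ApoE-/- 1 to 3, from counts of 261 to 609 per library. The lowest values were in NPRC-/-ApoE-/- 2 and 3, and NPRC-/-ApoE-/- 1 lay above ApoE-/- 5. Only 2 libraries reached 1 FPKM, both titled ApoE-/-. In the fit without a filter, the log2 fold change was -0.54 by title (SE 0.23, edgeR adjusted p = 0.466, with the unadjusted p under 0.05) and -0.14 by genotype entry. That fit called 10.4% of its 44689 loci at an unadjusted p under 0.05.

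Thrombomodulin, encoded by Thbd, turns thrombin from a clotting protease into an activator of protein C. Thbd stood at 19.58, 31.22, 28.41, 26.28 and 18.70 FPKM in ApoE-/- 1 to 5 and at 22.53, 16.64 and 24.83 FPKM in NPRC-/-ApoE-/- 1 to 3. The groups overlapped, and the lowest value of all, 16.64 FPKM, was in NPRC-/-ApoE-/- 2. The means were 24.8 ± 5.50 (SD, n = 5) and 21.3 ± 4.22 FPKM (SD, n = 3), a log2 fold change of -0.20 (SE 0.24, edgeR adjusted p = 0.73). By genotype entry it was 0.01.

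The endothelial protein C receptor, encoded by Procr, presents protein C to thrombomodulin. Its level was 5.27, 4.06, 5.07, 5.19 and 3.52 FPKM in ApoE-/- 1 to 5 and 3.39, 4.23 and 3.76 FPKM in NPRC-/-ApoE-/- 1 to 3. In ApoE-/-, 3 libraries lay above 5 FPKM and the other two among the NPRC-/-ApoE-/- values. The log2 fold change was -0.27 by title (SE 0.20, edgeR adjusted p = 0.563) and -0.05 by genotype entry. Procr stayed below 0 in all 18 alternative settings in which it was tested. The summed level of 10 endothelial markers was 82.1 to 95.8 FPKM in ApoE-/- by title, against 77.5 to 83.9 FPKM in NPRC-/-ApoE-/-, with 6 of the 10 lower in mean in the second group. The loci of the markers Egfl7 and Esam also carry other gene names. The part of endothelial cells in the values of Thbd, Procr and Tfpi was not tested.

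Protease nexin 1, encoded by Serpine2, inhibits thrombin, urokinase and plasmin at the cell surface. It was read at 22.06, 26.20, 33.86, 38.53 and 24.41 FPKM in ApoE-/- 1 to 5 and at 21.15, 22.72 and 27.24 FPKM in NPRC-/-ApoE-/- 1 to 3. ApoE-/- 3 and 4 stood above all the other libraries. By title its log2 fold change was -0.28 (SE 0.25, edgeR adjusted p = 0.629), 0.29 by genotype entry and 0.06 in the libraries whose labels agree. The name Serpine2 stands on 3 loci. A locus among them lies antisense inside the gene, at 1.34 to 2.67 FPKM. Since no source used here says that the counting used strand, its reads and those of the locus used may not have been fully told apart. The remaining locus lies next to the locus used, on the same strand, at 0.94 to 1.79 FPKM. Its log2 fold change was 0.37 by title (edgeR adjusted p = 0.489).

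Tissue-type plasminogen activator, encoded by Plat, releases plasmin on the surface of a clot. Plat stood at 4.50, 6.16, 5.50, 4.77 and 4.58 FPKM in ApoE-/- 1 to 5 and at 4.98, 8.10 and 4.85 FPKM in NPRC-/-ApoE-/- 1 to 3. A single library, NPRC-/-ApoE-/- 2, was the highest, and the other two of its group lay inside the ApoE-/- range. The log2 fold change was 0.24 by title (SE 0.20, edgeR adjusted p = 0.607), -0.27 by genotype entry and -0.07 in the libraries whose labels agree. Without NPRC-/-ApoE-/- 2 it was 0.00068.

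Urokinase, encoded by Plau, is the other plasminogen activator and acts mainly at the surface of migrating cells. Plau was read at 12.67, 13.54, 24.63, 21.27 and 8.68 FPKM in ApoE-/- 1 to 5, and at 10.44, 5.68 and 6.04 FPKM in NPRC-/-ApoE-/- 1 to 3. Only ApoE-/- 5 lay inside the NPRC-/-ApoE-/- range, and ApoE-/- 3 and 4 stood at more than 20 FPKM. The means were 16.2 ± 6.57 (SD, n = 5) and 7.39 ± 2.65 FPKM (SD, n = 3), and the log2 fold change was -1.14 (SE 0.40, edgeR adjusted p = 0.309). By genotype entry it was -0.13 (adjusted p = 1). Plau no longer met the criterion of the study without ApoE-/- 3 (-0.89), without ApoE-/- 4 (-0.99), without NPRC-/-ApoE-/- 2 (-0.95) or without NPRC-/-ApoE-/- 3 (-1.03), and met it without any other single library. Without ApoE-/- 5, the library with liver transcripts, the log2 fold change was -1.31.

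The receptor of urokinase, encoded by Plaur, holds the enzyme at the cell membrane. Its level was 6.16, 5.85, 6.76, 9.13 and 3.79 FPKM in ApoE-/- 1 to 5, and 5.42, 2.12 and 3.45 FPKM in NPRC-/-ApoE-/- 1 to 3. As for Plau, ApoE-/- 5 was the only ApoE-/- library inside the range of the other group, and NPRC-/-ApoE-/- 2 was the lowest of all. By title its log2 fold change was -0.79 (SE 0.36, edgeR adjusted p = 0.38) and 0.10 by genotype entry (adjusted p = 1). Without ApoE-/- 5 it was -0.94, and without NPRC-/-ApoE-/- 2 it was -0.49.

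The ratio of the activators differed from library to library. Plau exceeded Plat in 7 of 8 libraries, by FPKM ratios of 2.82, 2.20, 4.48, 4.46 and 1.9 in ApoE-/- 1 to 5 and 2.10 and 1.25 in NPRC-/-ApoE-/- 1 and 3. In NPRC-/-ApoE-/- 2 the ratio was 0.701, where Plat was highest and Plau lowest of all 8 libraries. Plau exceeded Plaur in 8 of 8 libraries, with ratios between 1.75 and 3.64 that overlapped between the titled groups.

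Thrombospondin 1, encoded by Thbs1, is a matrix protein that platelets release and that vessel wall cells also make. It was read at 79.00, 149.72, 186.55, 206.06 and 48.97 FPKM in ApoE-/- 1 to 5, and at 121.54, 43.60 and 55.92 FPKM in NPRC-/-ApoE-/- 1 to 3. ApoE-/- 2, 3 and 4 stood above all the other libraries, and ApoE-/- 1 and 5 lay inside the range of the other group. Between the titled groups the log2 fold change was -0.88 (SE 0.54, edgeR adjusted p = 0.488) and -0.12 by genotype entry. Without ApoE-/- 5 it was -1.11, and without NPRC-/-ApoE-/- 1 it was -1.41. The summed level of 7 platelet and megakaryocyte markers was 10.95 to 19.12 FPKM in ApoE-/- by title, against 9.04 to 12.98 FPKM in NPRC-/-ApoE-/-. In mean, 6 of the 7 were lower in the second group. The Itga2b locus (2.27 to 3.03 FPKM) also carries the name Gpatch8. The Gp1bb locus (1.46 to 4.04 FPKM) also carries the names Sept5 and Gm49601. The sum therefore cannot be assigned to platelets and megakaryocytes alone, and its part in the level of Thbs1 was not tested.

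The spread within a label was wide for the same 3 genes. ApoE-/- 4 and 5 share both title and genotype entry, yet ApoE-/- 4 had 4.21 times the Thbs1, 2.45 times the Plau and 2.41 times the Plaur level of ApoE-/- 5, and 0.472 times its F3 level. NPRC-/-ApoE-/- 1 and 2 also share both labels, and the first had 2.79 times the Thbs1, 2.56 times the Plaur and 1.84 times the Plau level of the second. Over the 8 libraries the coefficient of variation was 57.6% for Thbs1, 53.4% for Plau and 41.1% for Plaur, and 17.8% to 26.3% for the other 6 genes.

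Plau, Plaur and Thbs1 went up and down together over the libraries. On log2 CPM (counts scaled to library size), Pearson's r over the 8 libraries was 0.92 for Plau and Plaur, 0.91 for Plau and Thbs1 and 0.90 for Plaur and Thbs1. Other members followed them less closely. With Plau, Plaur and Thbs1, r was 0.66 to 0.81 for Thbd, 0.60 to 0.68 for Serpine2 and 0.53 to 0.68 for Procr. F3 ran the other way, with r = -0.68 against Thbs1, -0.57 against Plau and -0.56 against Plaur, and Plat had r = -0.06 with Thbs1. These values are descriptions, since all genes share the same 8 libraries. Among all tested loci with a single gene name, those most like Plau in pattern were Sh3bgrl3 (r = 0.997) and Glis3 (0.996), and those most like Thbs1 were B3gnt9 (0.994) and Akr1b8 (0.992). Nav3 (0.991) and Pgs1 (0.990) were the nearest to Plaur, and Klk10 (0.973) and Pfkp (0.961) to F3. For the others the nearest were Mmp23 (0.981) for Thbd, Vav3 (0.968) for Serpine2, 4930553I21Rik (0.988) for Procr and Usp2 (0.954) for Plat.

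The summed levels of macrophage and fibroblast markers moved with Plau, Plaur and Thbs1. Macrophages, which in lesions make urokinase and its receptor, were followed with 10 markers, whose summed level was 738 to 2306 FPKM in ApoE-/- by title, against 346.9 to 1163 FPKM in NPRC-/-ApoE-/-. All 10 had a lower mean in the second group, and none was at 0 in any library. The Cd68 locus (13.14 to 24.25 FPKM) also carries other gene names, among them Senp3 and Eif4a1. The Itgam locus also carries the names Gm49368 and Gm45700, so these levels cannot be assigned to Cd68 and Itgam alone. Lyz2 held the largest part of the sum in every library, such as 1543.97 FPKM in ApoE-/- 4. The sum was highest in ApoE-/- 4 (2306 FPKM) and ApoE-/- 3 (2212 FPKM), which also held the 2 highest levels of Plau, Plaur, Thbs1 and Serpine2, and lowest in NPRC-/-ApoE-/- 3 (346.9 FPKM) and 2 (469.7 FPKM), which held the 2 lowest levels of Plau and Plaur. The 8 fibroblast markers summed to 578.3 to 1422 FPKM and 332.1 to 754.6 FPKM, with 8 of 8 lower in mean. Among them Pi16 and Mfap5 stood highest in ApoE-/- 5 (16.38 and 17.11 FPKM), and the rest in ApoE-/- 2, 3 or 4. The 10 smooth muscle markers summed to 1354 to 1808 FPKM and 1746 to 2996 FPKM, with 10 of 10 higher in mean. The 6 neutrophil markers summed to 3.33 to 13.29 FPKM and 2.52 to 12.05 FPKM, with 3 of 6 lower in mean. That sum was highest in ApoE-/- 4 and lowest in NPRC-/-ApoE-/- 2, as were Plaur and Thbs1. The part of these cell types in the values of Plau, Plaur and Thbs1 was not tested. By genotype entry the macrophage sums were 469.7 to 2212 FPKM in ApoE-/- and 346.9 to 2306 FPKM in NPRC-/-ApoE-/-. In the same order, the fibroblast sums were 332.1 to 1422 and 478.8 to 1363 FPKM. The smooth muscle sums were 1354 to 2509 and 1404 to 2996 FPKM.

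**Figure D3:**
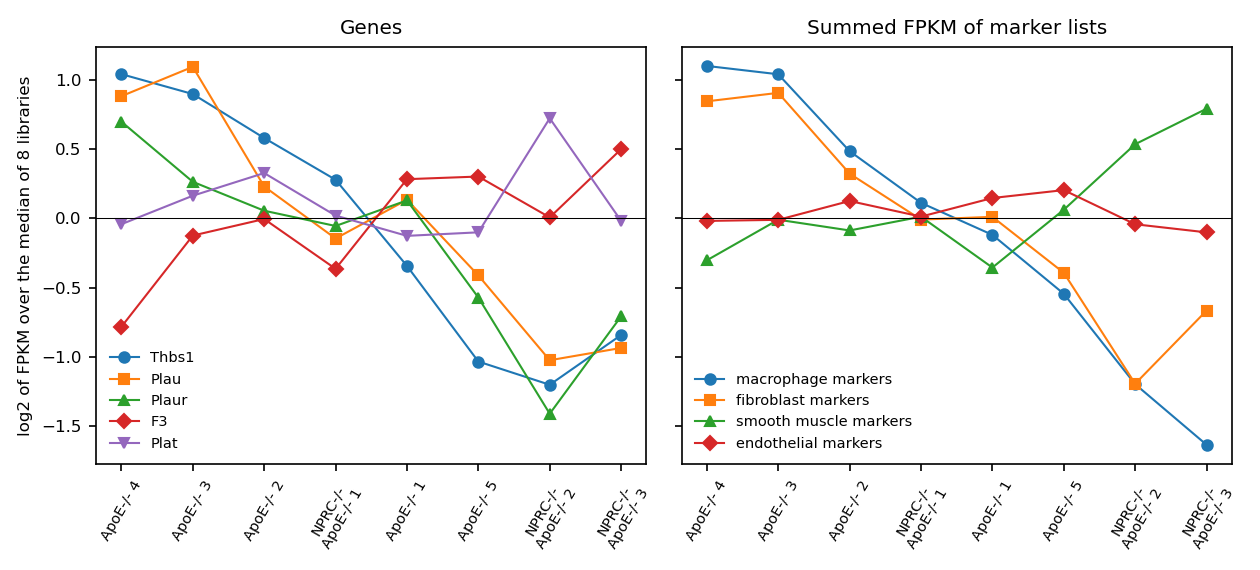
Level in each library relative to the median of the 8 libraries (vertical axis, log2 of FPKM ratio) for 5 genes (left) and for the summed FPKM of 4 marker lists (right); libraries are ordered on the horizontal axis from the highest to the lowest macrophage sum, and lines join the points of 1 gene or list. Thbs1, Plau and Plaur stand high in ApoE-/- 4 and 3 and low in NPRC-/-ApoE-/- 2 and 3, as do the macrophage sums (2306 and 2212 against 469.7 and 346.9 FPKM).

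Upstream sequence was on hand for 5 of the 9 genes, from RefSeq on GRCm38.p6. It is shown for Plaur and F3, whose levels had a negative correlation over the 8 libraries (r = -0.56). The opposition was partial, since ApoE-/- 1 lay above the median for both genes. Both lines give the 250 bases before the RefSeq start, 5′ to 3′ on the plus strand, chr7:24462233-24462482 for Plaur and chr3:121723287-121723536 for F3. Capitals mark matches, on either strand, to the letters of an AP-1 element (TGANTCA), an SP1 box (GGGCGG) or a KLF box (CCACCC).
Plaur: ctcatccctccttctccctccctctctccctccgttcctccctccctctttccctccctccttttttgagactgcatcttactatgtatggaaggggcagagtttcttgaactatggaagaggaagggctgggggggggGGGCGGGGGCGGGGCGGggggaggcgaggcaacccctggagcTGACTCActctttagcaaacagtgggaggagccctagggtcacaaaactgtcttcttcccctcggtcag
F3: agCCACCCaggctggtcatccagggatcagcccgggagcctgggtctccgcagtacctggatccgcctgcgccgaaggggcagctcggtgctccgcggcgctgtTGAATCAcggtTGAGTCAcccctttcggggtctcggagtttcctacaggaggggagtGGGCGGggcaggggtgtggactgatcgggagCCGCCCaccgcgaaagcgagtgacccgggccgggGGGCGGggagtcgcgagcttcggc
The AP-1 letters stood once in Plaur, 69 bases before the start, and at 2 places in F3, 146 and 135 bases before it. Both held 3 matches to the SP1 box, 2 of which overlap in Plaur, and F3 also held 1 to the KLF box. Of 32851 promoter windows of the same length, 6.75% held the AP-1 letters, 32.7% the SP1 letters and 28.1% the KLF letters, and 3 of the 5 genes with a sequence held the AP-1 letters. Procr had 1 AP-1 match 154 bases before its start, while Serpine2 held 6 SP1 matches. The GC content was 59.6% for Plaur and 70.0% for F3, against a median of 52.4%. A match describes letters only. The F3 locus of the table begins before this window, which therefore lies inside the assembled locus.

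The other haemostasis genes were followed with a list of 54 genes in 6 roles, of which 30 were tested. By title 24 of the 30 lay below 0 and 6 above, with a median log2 fold change of -0.35, and by genotype entry 17 lay below 0 with a median of -0.03. Lower values with an unadjusted p under 0.05 were found for 3 genes (Gas6, the Klkb1 locus and Nt5e) and a higher value for 1 (Ptgis), 4 of 30 in all, against 13.6% of all tested loci. Only Nt5e met the criterion of the study, against 3.47% of all tested loci, and none had an adjusted p under 0.05 in edgeR. The groups did not overlap for 3 of the 30, the Klkb1 locus, Nt5e and Ptgis, against 7.25% of all tested loci. In DESeq2, Nt5e (adjusted p = 0.0254), the Klkb1 locus (adjusted p = 0.0191) and Ptgis had an adjusted p under 0.05, where 3.14% of all tested loci had one.

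The clearest difference of the list was in Ptgis, prostacyclin synthase, whose product keeps platelets from aggregating. Ptgis stood at 8.54, 8.58, 7.97, 7.34 and 9.38 FPKM in ApoE-/- 1 to 5 and at 13.80, 16.90 and 17.78 FPKM in NPRC-/-ApoE-/- 1 to 3. Every NPRC-/-ApoE-/- library lay above every ApoE-/- library. Its log2 fold change was 0.98 (SE 0.14, edgeR adjusted p = 0.132) by title and 0.09 by genotype entry. The adjusted p was 3.6e-08 in DESeq2, 0.0295 in limma-voom with sample quality weights and 0.0486 in edgeR without NPRC-/-ApoE-/- 1, and over all alternatives it ran up to 1. By title, the 10 smooth muscle markers summed to 1354 to 1808 FPKM in ApoE-/- and 1746 to 2996 FPKM in NPRC-/-ApoE-/-. The part of smooth muscle cells in the level of Ptgis was not tested. Nt5e encodes CD73, which makes adenosine, a platelet inhibitor. It was read at 1.99, 2.25, 2.42, 2.87 and 1.52 FPKM in ApoE-/- 1 to 5 and at 1.51, 0.58 and 0.79 FPKM in NPRC-/-ApoE-/- 1 to 3. The highest NPRC-/-ApoE-/- value lay just under the lowest ApoE-/- value, and the log2 fold change was -1.20 (SE 0.34, edgeR adjusted p = 0.267) by title and 0.01 by genotype entry. Nos3, the endothelial nitric oxide synthase, lay at 6.97 to 9.61 FPKM in ApoE-/- and 6.08 to 9.45 FPKM in NPRC-/-ApoE-/- (log2 fold change -0.12, edgeR adjusted p = 0.771, and 0.13 by genotype entry). Hs3st1, a heparan sulphate sulphotransferase, had a log2 fold change of -0.41 (edgeR adjusted p = 0.422), and -0.36 by genotype entry.

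Of the list of anticoagulants and their relatives, the 4 tested genes lay below 0 by title, and 3 of the 4 by genotype entry. Gas6, listed as a relative of protein S, is a ligand of TAM receptors and not itself an anticoagulant. It stood at 93.28 to 158.07 FPKM in ApoE-/- and 78.80 to 103.56 FPKM in NPRC-/-ApoE-/- (log2 fold change -0.51, edgeR adjusted p = 0.364). Pros1, protein S, the cofactor of activated protein C, had -0.44 (adjusted p = 0.371) and Anxa5, annexin A5, which covers exposed phosphatidylserine, -0.41 (adjusted p = 0.448). By genotype entry these 3 lay at -0.05, -0.03 and -0.03.

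Of the genes of plasmin formation and its inhibitors, the 6 tested ones reported here lay below 0 by title, and 3 of the 6 by genotype entry. Lrp1, an endocytic receptor that clears plasminogen activators, had -0.53 (edgeR adjusted p = 0.446), and S100a10, a plasminogen receptor, -0.63 (adjusted p = 0.558). By genotype entry they lay at -0.07 and -0.16. The Klkb1 locus had -0.79 (edgeR adjusted p = 0.255) at 2.33 to 3.31 and 1.32 to 2.20 FPKM, and 0.04 by genotype entry, but it merges 3 gene names, Klkb1, Gm45753 and Cyp4v3, so the value cannot be assigned to plasma kallikrein.

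Of the clotting factors, 5 of 7 tested lay below 0 by title and 5 of 7 by genotype entry, but these were not all the same genes. F5, factor V, had a log2 fold change of -1.10 (SE 0.60, edgeR adjusted p = 0.438), at 1.28 to 4.69 FPKM in ApoE-/- and 0.57 to 2.73 FPKM in NPRC-/-ApoE-/-. By genotype entry F5 lay at -0.05. F7, the partner of tissue factor, had -0.43 (adjusted p = 0.731), Vwf, the adhesive protein of endothelium and platelets, -0.09 (adjusted p = 0.87) and Ggcx, the vitamin K-dependent carboxylase, 0.16 (adjusted p = 0.651). By genotype entry these 3 lay at -0.26, -0.00073 and 0.04. Both tested thrombin and protease receptors lay below 0, F2r, the thrombin receptor, at -0.22 (adjusted p = 0.714) and F2rl1 at -0.36 (adjusted p = 0.519), and both lay above 0 by genotype entry (0.15 and 0.23). Of the relatives and receptors of Thbs1, 3 of 5 tested lay below 0. The values were -0.50 for Comp, -0.39 for Cd47, a receptor of thrombospondin 1, and 0.21 for Thbs3 (edgeR adjusted p = 0.532, 0.393 and 0.487). By genotype entry these 3 lay at -0.23, -0.27 and -0.08.

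**Figure D4:**
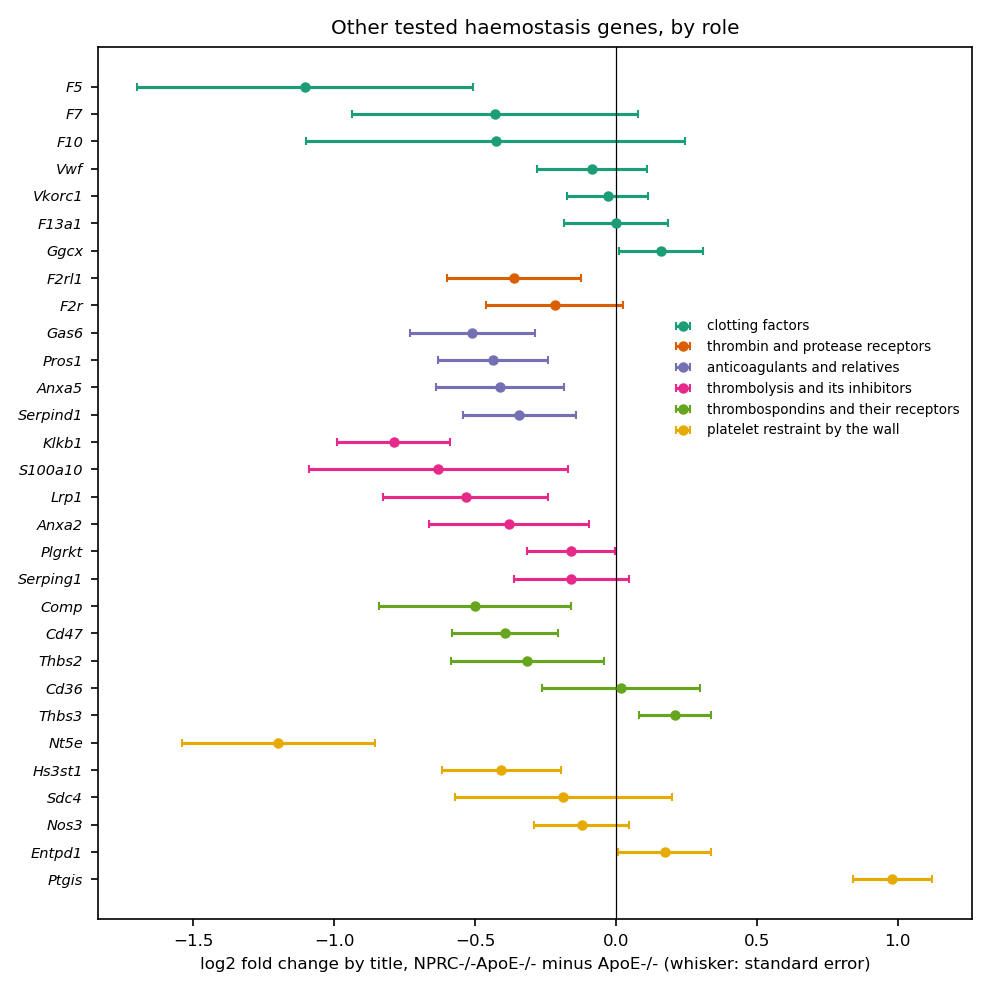
Log2 fold change by title (horizontal axis, NPRC-/-ApoE-/- minus ApoE-/-) with its standard error as whisker for the 30 tested genes of the list, coloured by role. 24 lie below 0, and Ptgis (0.98) and Nt5e (-1.20) mark the ends.

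Plasminogen, which the liver makes, was close to 0 except in ApoE-/- 5. Plg was read at 0.82 FPKM there and at 0.00 to 0.04 FPKM in the other 7 libraries. The fibrinogen genes Fga, Fgb and Fgg stood at 1.96, 1.35 and 2.09 FPKM, against at most 0.11, 0.06 and 0.10 FPKM elsewhere, and F2, prothrombin, at 0.43 against at most 0.10 FPKM. These genes, other than Plg, were chosen after their values were seen. Other clotting genes that the liver makes did not stand highest there, such as F7 (2.76 FPKM in ApoE-/- 5, up to 6.0 FPKM elsewhere), F10 (1.00 and up to 3.07 FPKM) and Serpina10 (0.10 and up to 0.39 FPKM). The 4 hepatocyte markers summed to 56.73 FPKM in that library and 0.10 to 0.57 FPKM in the rest. The source of these transcripts was not tested.

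**Figure D5:**
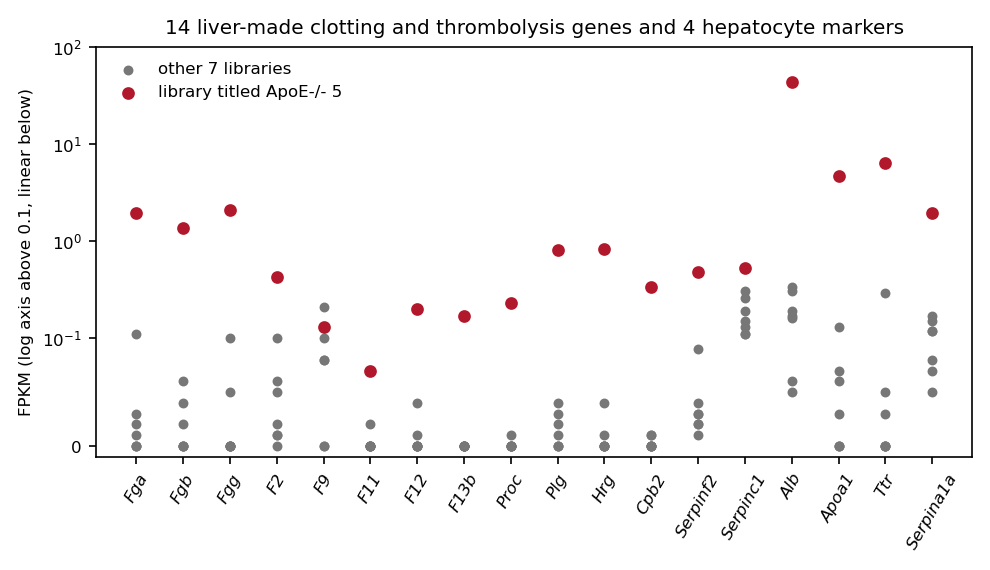
FPKM (vertical axis, logarithmic above 0.1 and linear below) of 14 of the liver-made clotting and thrombolysis genes and 4 hepatocyte markers (horizontal axis) in each library. The library titled ApoE-/- 5 (red) has 0.82 FPKM of Plg and 43.74 FPKM of Alb, against at most 0.04 and 0.34 FPKM in the other 7 (grey). The 14 genes were chosen after their values were seen.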

How the data were processed

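Whole aortas were profiled by poly(A) RNA-seq, and 8 libraries were analysed here. The study's methods describe more NPRC-/-ApoE-/- mice than the 3 libraries titled so. After read trimming, the authors used HISAT2 for mapping and StringTie for assembly, and the submitters' processing notes name cutadapt 1.9, FastQC and the build GRCm38. The counts are whole numbers per assembled locus that the authors deposited without normalization. The FPKM values are those the authors deposited, scaled to transcript length and mapped fragments. How the counts were made and whether they used strand is not given in the sources used here. The table had 0 columns without a sample.

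Groups came from the titles, and every comparison was repeated by genotype entry. A locus was tested when 3 or more libraries reached 1 FPKM, on the counts, with edgeR 4.0.16 (TMM scaling, quasi-likelihood test, Benjamini-Hochberg adjustment over all tested loci) in R 4.3.3. limma 3.58.1 and DESeq2 1.42.0 were alternatives, and other alternatives covered the label, scaling, filter, replicate block and each library left out. The procedure was tested on simulated counts. Log2 CPM (counts scaled to library size) used a prior count of 2. P-values measure the spread between libraries, and the number of libraries limits the precision at a depth of 62969165 to 86693276 counts per library. The 9 genes and all lists were chosen with earlier results of these data known. Of the other haemostasis genes, the text names Vwf, F2r, Plg and Nos3 and up to 3 tested genes per role with the smallest p by title. Likeness is Pearson's r over the 8 libraries among tested loci with 1 gene name. The liver-made genes other than Plg were named after their values were seen. The result of 1 listed gene is not reported here, and it was left out of the counts of its list. Promoter windows come from RefSeq and gene positions from GENCODE M21.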

Additional observations from a re-analysis of the deposited data

Results flagged for a closer look

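In 54 groups of values examined (each named gene in each group of 5 libraries, by title and by genotype entry), 2 had a lowest or highest library far from the rest of its group, where chance alone gives about 2.7. The gap is judged on log2 CPM. Plaur, the urokinase receptor, was 2.77 in NPRC-/-ApoE-/- 2, below the other 4 libraries with the entry ApoE-/-, of which the nearest was at 4.1. This library had 2.12 FPKM of Plaur and was also the lowest of all 8 for Plau, Thbs1 and Thbd and the highest for Plat. Its macrophage marker sum was 469.7 FPKM. F2rl1, a protease-activated receptor, was 1.32 in ApoE-/- 2, the lowest of the 5 libraries titled ApoE-/-, of which the nearest was at 2.1. This is the library with the mesothelial markers, and its F2rl1 level was 0.76 FPKM. No cause was tested for either value.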

How the results depend on the processing

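Members here are the 9 clotting and thrombolysis genes, and pathway genes are the other haemostasis genes. Grouping by genotype entry turned the direction of Thbd (0.014), Plat (-0.27), Plaur (0.10), Serpine2 (0.29), F2r (0.15), F2rl1 (0.23), Klkb1 (0.044), Thbs3 (-0.082), Nt5e (0.011) and Nos3 (0.13) and moved the median of the tested members from -0.28 to -0.016. It left 0 members and 0 pathway genes past the criterion of the study, against 1 of each by title. The 4 libraries whose labels agree turned Plat (-0.074) and Serpine2 (0.064), and a minimum mean of 5 FPKM turned Vwf (0.014). Members past the criterion numbered 0 with limma on log2(FPKM + 1) (0.853% of all tested loci), 3 with limma-voom and sample quality weights (7.27%), and 0 to 3 when 1 library was left out (1.97% to 7.97%). Without NPRC-/-ApoE-/- 1 they were 3 (Plau, Plaur and Thbs1), without ApoE-/- 5 they were 2, and without ApoE-/- 3, ApoE-/- 4, NPRC-/-ApoE-/- 2 or NPRC-/-ApoE-/- 3 they were 0. Members with an unadjusted p under 0.05 numbered 0 by genotype entry (1.31% of all tested loci), 2 in the libraries whose labels agree (13.4%), with limma on log2(FPKM + 1) (14.1%) or log2(FPKM + 0.1) (14%), with DESeq2 (16.7%) and without a filter (10.4%), 3 with limma-voom and sample quality weights (26.4%), and 0 to 3 with 1 library left out (6.5% to 21.6%). No member passed an adjusted p of 0.05 under any of these alternatives. Pathway genes past the criterion numbered 0 with limma on log2(FPKM + 1) (0.853% of all tested loci) and 2 with DESeq2 (3.89%). They numbered 5 with limma-voom and sample quality weights (7.27%) and 0 to 6 with 1 library left out (1.97% to 7.97%). Without a filter, where all 54 were tested, they numbered 3 (5.12% of 44689 loci). In the 4 libraries whose labels agree, Gas6 lay at -0.48, the Klkb1 locus at -1.05, Nt5e at -1.42 and Ptgis at 1.17. Leaving out 1 library gave ranges that cross 0 for F3 (-0.14 to 0.35), F7 (-1.25 to 0.017), Vwf (-0.18 to 0.041) and Nos3 (-0.29 to 0.042). Plau and Thbs1 lay below 0 in all 19 alternatives. The unfiltered alternatives for Tfpi were chosen after seeing the data and lay between -0.80 and -0.14. Tested loci past an adjusted p of 0.05 numbered 0 in edgeR, 644 in DESeq2 and 130 with limma-voom and sample quality weights. The causes of these shifts were not tested.

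With a replicate block over the libraries numbered 1 to 3, 2 members (Plau and Plaur) had an unadjusted p under 0.05 (8.84% of all tested loci), and without it in the same 6 libraries 1 did (Plau, with 12.9% of loci). Same-numbered libraries had correlations of deviations of -0.27, -0.13 and -0.01, inside the range of differently numbered libraries, -0.34 to 0.29. The deviations were taken from the titled groups, and whether the numbers pair the libraries was not tested.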
